A study of Mus with 2 samples.

Results

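The genes described here encode chains of the main polymers of basement membranes: 5 collagen IV chains (Col4a1, Col4a2, Col4a3, Col4a4 and Col4a5) and 5 laminin chains (Lama1, Lama5, Lamb1, Lamb2 and Lamc1). They were chosen by name, and all 10 were present among the 28693 features counted. They were measured in single cells of 2 kidney libraries from newborn mice (P0) of the genotype Rbpj c/- ; Foxd1cre/+. Foxd1cre drives deletion of the floxed Rbpj allele in the renal interstitium, whose cells descend largely from Foxd1-positive stromal progenitors. Whether cells of other types, podocytes among them, also lost this allele was not measured here. The minus sign in the genotype marks a null allele of Rbpj that every cell carries, so no gate was wild type for Rbpj. The series design also names control kidneys (Rbpj c/+ ; Foxd1cre/+), which were not analysed here, so every comparison here is between cell types of mutant kidneys and none is a test of the deletion. Both libraries carry the same labels apart from their names, and nothing in the labels says that they came from separate animals. The p-values below therefore measure the spread between 2 libraries that remained after the shift common to all gates was removed. That spread was pooled over the gates and may be technical.

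Basement membranes are sheets of extracellular matrix that lie under epithelia and endothelia and around muscle and fat cells. Laminins are trimers of 1 alpha, 1 beta and 1 gamma chain, and collagen IV chains likewise join as trimers: Col4a1 and Col4a2 form the widespread collagen IV network, while Col4a3, Col4a4 and Col4a5 form a second network that is restricted to a few sites, among them the mature glomerular basement membrane. As a glomerulus matures, its basement membrane is known to exchange the Col4a1 and Col4a2 network for that of Col4a3, Col4a4 and Col4a5, and laminins with Lama1 and Lamb1 for laminins with Lama5 and Lamb2. Loss of the Col4a3, Col4a4 or Col4a5 chain causes Alport syndrome, and loss of LAMB2 causes Pierson syndrome.

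In the mm10 annotation (GRCm38.p6) Col4a1 lies on chromosome 8 from 11198423 to 11312889 and Col4a2 beside it from 11312805 to 11449287, and the 2 gene bodies overlap by 85 bases at their shared start. Col4a4 lies on chromosome 1 from 82448419 to 82587034 and Col4a3 from 82586921 to 82722059, with an overlap of 114 bases. Col4a5 lies on chromosome X from 141475370 to 141689236. The laminin genes lie apart from one another: Lama1 on chromosome 17 from 67697127 to 67822645, Lama5 on chromosome 2 from 180176373 to 180225904, Lamb1 on chromosome 12 from 31265146 to 31329644, Lamb2 on chromosome 9 from 108479847 to 108490530, and Lamc1 on chromosome 1 from 153218922 to 153332786. All 10 are protein-coding. The libraries count the 3' ends of transcripts as unique molecular identifiers (UMIs), so the short overlaps at the starts of the paired collagen genes lie away from the counted ends.

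Replicate 1 held 163405630 UMIs and replicate 2 held 135436576. After filters on UMIs, mitochondrial share and doublets, 5910 and 4937 cells were kept, with medians of 11716.5 and 12196 UMIs per cell, and 8 cell barcodes were shared between the libraries. Cells were placed in marker gates, which used none of the 10 genes, and 4810 and 4077 cells fell in a gate. The podocyte gate held 466 and 338 cells and was divided into 3 equal parts, early, middle and late, by the difference between a late and an early gene score. Of these cells 221 and 143 lay within 0.05 score units of a boundary between stages, so the stages are ranges and not types. Levels are given as CPM, the UMIs of a gene summed over the cells of a gate in a library and scaled to the total UMIs of those cells. The 7 podocyte markers summed to 8821 and 9217 CPM in the early podocyte gate and to 16340 and 16500 in the late one, against 373 and 356 in the endothelial gate. As these markers defined the gate, the sums describe it and are no independent check of its label. Rbpj, the targeted gene, stood at 46.7 and 47.3 CPM over all kept cells and at 28.4 and 25.3 CPM in the stroma gate. Counts of 3' ends do not check the deletion, since a transcript without an internal exon is counted too.

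RNA outside cells set a background for every level. In barcodes with 1 to 100 UMIs Col4a1 stood at 556 and 459 CPM, Lamb1 at 197 and 161, Lamc1 at 169 and 150.2, and Col4a3 at 39.2 and 29.0. In erythroid cells, which are not known to make basement membrane, Col4a1 stood at 29.7 and 39.7 CPM, Col4a2 at 15.5 and 31.8, Lamb1 at 8.96 and 15.3, Lamc1 at 8.14 and 8.51, and each of the other members at 0.81 to 3.97 CPM. Levels near those of the erythroid gate are read here as background. Levels are compared for 1 gene between gates, and not between genes.

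**Figure D1:**
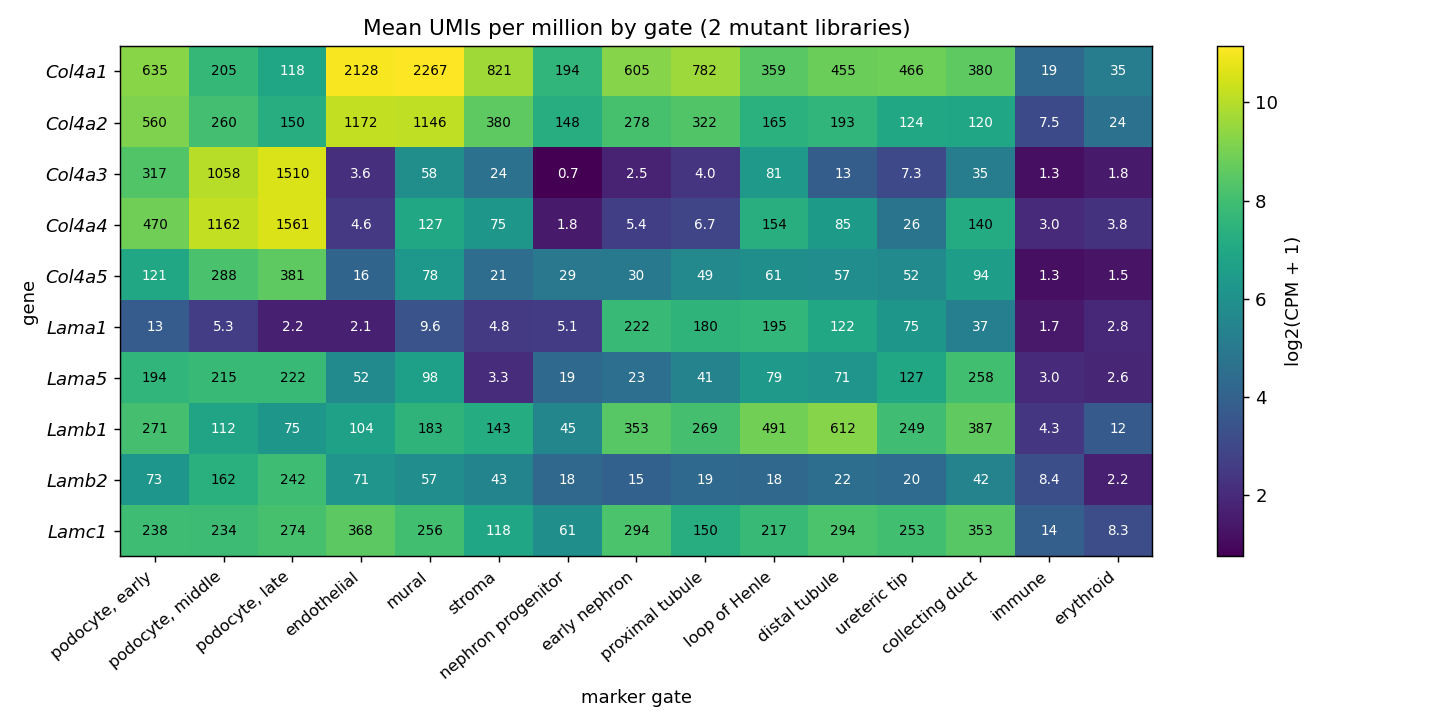
Mean level of each of the 10 genes (rows) in each of 15 marker gates (columns), as CPM averaged over 2 mutant libraries; the colour gives log2(CPM + 1) and the printed number the CPM. Col4a3, Col4a4, Col4a5 and Lamb2 have their highest level in the late podocyte gate, Col4a1 in the mural and endothelial gates, and Lama1 in the early nephron, loop of Henle and proximal tubule gates.

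Col4a1 and Col4a2, the chains of the widespread network, had their highest levels among whole gates in blood vessel cells. Col4a1 stood at 2205 CPM in replicate 1 and 2052 in replicate 2 of the endothelial gate and at 2198 and 2336 CPM in the mural gate (contractile vessel wall cells), and these ranges overlapped. The medullary part of the stroma, described further on, reached 2032 and 2694 CPM. Col4a2 stood at 1194 and 1149 CPM in the endothelial gate and at 1093 and 1200 CPM in the mural gate. Next for Col4a1 came stroma (833 and 809 CPM), proximal tubule (847 and 717), early podocytes (600.2 and 669) and early nephron (604 and 605). Its lowest levels outside blood cells were in middle podocytes (179.8 and 230.4 CPM), nephron progenitors (195 and 193) and late podocytes (118 and 118). Every one of these gates lay above the erythroid level in both libraries. The share of Col4a1 among the UMIs of Col4a1 and Col4a2 ranged from 43.0% in late podocytes of replicate 2 to 79.5% in the ureteric tip of replicate 2, so the ratio of their UMIs was not constant across gates.

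Col4a3, Col4a4 and Col4a5, the chains of the restricted network, stood highest in podocytes. In the late podocyte gate Col4a3 stood at 1559 and 1462 CPM, Col4a4 at 1570.1 and 1551 CPM, and Col4a5 at 386 and 376 CPM. Among whole gates outside podocytes, leaving aside the stroma sub-gates described further on, the next levels of Col4a3 were in the loop of Henle (99.96 and 63.0 CPM), the mural gate (60.4 and 55.8) and the collecting duct (36.7 and 32.3). Col4a4 followed the same gates, with 185 and 123 CPM in the loop of Henle, 151 and 129 in the collecting duct and 155 and 98.9 in the mural gate, and these 3 ranges overlapped. The mural gate held 85 and 72 cells, against 31 and 29 when clusters named from the same markers replaced the gates. The part of podocyte RNA in its Col4a3 and Col4a4 levels was not tested. In endothelial cells, which share the glomerular basement membrane with podocytes, Col4a3 (4.85 and 2.38 CPM) and Col4a4 (5.66 and 3.49 CPM) were near the erythroid levels of 0.81 and 2.84 CPM and of 3.66 and 3.97 CPM. In nephron progenitors, early nephron and proximal tubule cells both genes stood between 0.56 and 9.57 CPM. Col4a5 was spread more widely: it stood at 27.9 and 29.8 CPM in nephron progenitors, 48.3 and 54.7 in the ureteric tip, 98.9 and 89.3 in the collecting duct and 17.0 and 15.4 in the endothelial gate, against 1.22 and 1.70 in erythroid cells.

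The alpha chains of laminin divided the gates. Lama1, the alpha chain of early epithelial laminin, stood at 224 and 219 CPM in the early nephron gate, 205 and 186 in the loop of Henle, 181 and 180.2 in the proximal tubule and 121 and 124 in the distal tubule gate. It stood at 74.8 and 75.6 CPM in the ureteric tip, at 34.5 and 38.8 in the collecting duct and at 3.58 and 6.04 in stroma. Lama5, the alpha chain of the mature glomerular and collecting duct membranes, stood at 19.98 and 18.1 CPM in nephron progenitors, 24.7 and 20.7 in early nephron, 44.5 and 38.2 in the proximal tubule, 70.2 and 87.6 in the loop of Henle, 128 and 126 in the tip, and 258 and 258 in the collecting duct. The early nephron thus stood first of the epithelial gates for Lama1 and the collecting duct for Lama5, while nephron progenitors were the lowest of them for both genes. Podocytes of all 3 stages held Lama5 at 175 to 231 CPM, and stroma held 3.48 and 3.08 CPM, near the erythroid level of 2.44 and 2.84.

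Of the beta chains, Lamb1 stood highest in the distal tubule gate (625 and 598 CPM from 25 and 11 cells), the loop of Henle (506 and 476) and the collecting duct (374 and 401). Lamb2 stood highest in late podocytes (227 and 257 CPM), then in middle podocytes (172 and 152), and the early podocyte (68.7 and 76.4) and endothelial (74.5 and 68.3) ranges overlapped. Lamb2 was under 25 CPM in every gate of the nephron tubule and the tip. Lamc1, the gamma chain shared by most laminins, varied least among the laminin genes outside blood cells: it stood between 209.6 and 370.3 CPM in 10 gates, from endothelial cells (370.3 and 366.5) to the loop of Henle (209.8 and 224), and lower in proximal tubule (152 and 147), stroma (120.5 and 116) and nephron progenitors (58.8 and 62.3).

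Late podocytes were compared with early podocytes to describe how the chains differ along podocyte maturation. Late podocytes held more Col4a3, Col4a4, Col4a5 and Lamb2 and less Col4a1, Col4a2, Lamb1 and Lama1, while Lama5 and Lamc1 did not pass the test. So 4 genes were higher and 4 lower of the 10, in the quasi-likelihood test of edgeR, with p-values adjusted (Benjamini-Hochberg) over 14568 genes, where 24.1% of all genes were called in either direction, 10.8% higher and 13.3% lower. Both libraries showed the direction of each of the 8 called genes. The median log2 fold change was 0.22 over the 10 genes and -0.04 over all genes tested.

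Col4a3 stood at 369.7 and 264 CPM in early, 1069 and 1047 in middle and 1559 and 1462 in late podocytes. The early and late values did not overlap, and the log2 fold change was 2.29 ± 0.14 (SE, adjusted p = 1.2e-12). Col4a4 stood at 506 and 434 CPM in early and at 1570.1 and 1551 in late podocytes, a log2 fold change of 1.76 ± 0.15 (adjusted p = 7e-10). Col4a5 stood at 136 and 106 CPM in early and at 386 and 376 in late podocytes (log2 fold change 1.67 ± 0.12, adjusted p = 4.9e-11). All 3 chains of the restricted network thus stood about 3 to 5 times higher in late podocytes, with fitted folds of 4.88, 3.38 and 3.18.

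The widespread chains changed in the other direction. Col4a1 stood at 600.2 and 669 CPM in early, 179.8 and 230.4 in middle and 118 and 118 in late podocytes. Its log2 fold change was -2.40 ± 0.12 (adjusted p = 4.9e-14), and the drop in CPM was larger from early to middle than from middle to late. Col4a2 stood at 534.5 and 587 CPM in early and at 143 and 157 in late podocytes (log2 fold change -1.88 ± 0.12, adjusted p = 8.8e-12). The share of cells with a Col4a1 UMI was 69.2% and 80.4% in early and 34.1% and 31.8% in late podocytes after each cell was thinned to 4600 UMIs. Before thinning these shares were 73.1% and 82.4% in early and 48.9% and 49.6% in late podocytes, at medians of 7479 and 9596.5 UMIs and of 7582 and 7763 UMIs per cell. In erythroid cells 10.4% and 8.82% had a Col4a1 UMI.

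The laminin beta chains showed the same exchange. Lamb2 stood at 68.7 and 76.4 CPM in early, 172 and 152 in middle and 227 and 257 in late podocytes (log2 fold change 1.76 ± 0.14, adjusted p = 2.1e-10). Lamb1 stood at 250.8 and 292 CPM in early, 117 and 108 in middle and 83.6 and 65.7 in late podocytes (log2 fold change -1.84 ± 0.13, adjusted p = 2e-11). Both genes had values in the 3 stages that did not overlap. The alpha and gamma chains differed less: Lama5 stood at 175 and 212 CPM in early and 213 and 231 in late podocytes (log2 fold change 0.22, 95% interval -0.01 to 0.45, adjusted p = 0.16), and Lamc1 at 209.6 and 267 in early and 289.7 and 259 in late podocytes (0.23, -0.01 to 0.47, adjusted p = 0.17). Lama1 was low throughout, at 14.5 and 11.3 CPM in early and 3.08 and 1.24 in late podocytes from 5 and 2 UMIs. Its log2 fold change was -2.55 ± 0.50 (adjusted p = 3.1e-04), and the late level was at the erythroid level of 2.85 and 2.84 CPM. With podocytes divided into 2 stages it was -1.35.

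**Figure D2:**
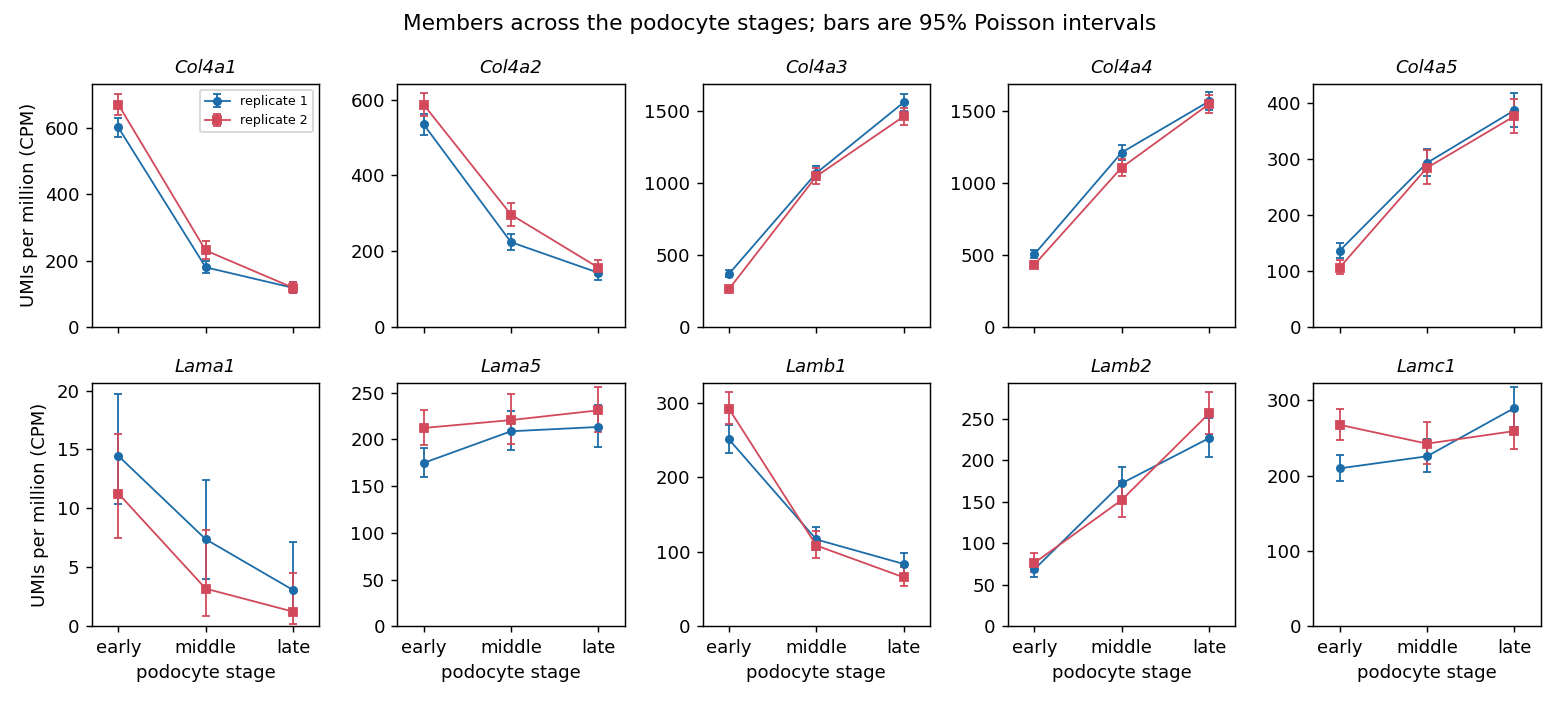
Level of each gene in CPM (vertical axes, which start at 0 and differ between panels) across the early, middle and late podocyte gates for replicate 1 (blue circles) and replicate 2 (red squares); bars are exact Poisson 95% intervals of counting error. Col4a3, Col4a4, Col4a5 and Lamb2 climb from early to late in both libraries, Col4a1, Col4a2 and Lamb1 descend, and Lama5 and Lamc1 stay between 175 and 290 CPM.

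Markers of other cell types differed between the podocyte stages as well. The 7 stroma markers summed to 1523 and 1824 CPM in early and to 1004 and 1111 in late podocytes. Most of this came from Tcf21, which podocytes themselves express (707 and 769 CPM early, 628 and 693 late), and from Col1a2 (748 and 986 early, 352 and 384 late), whereas Pdgfra stood at 4.70 and 0 CPM early and 1.23 and 0.62 late. The 6 mural markers summed to 470.5 and 775 CPM in early, 388.5 and 1081 in middle and 191 and 86.2 in late podocytes. Tagln, Acta2 and Myl9 carried most of this sum. Tagln stood at 268.5 and 429.4 CPM early, 253.6 and 802.8 middle and 161.7 and 52.1 late. Acta2 stood at 102.6 and 163.6 CPM early and 4.3 and 7.4 late, and Myl9 at 96.1 and 177.3 early and 24.0 and 25.4 late. Myh11 stood at 1.08 and 1.61 CPM early and at 0 in both libraries late. The 8 endothelial markers summed to 24.6 and 18.9 CPM in early and 25.2 and 11.2 in late podocytes. The 5 early nephron markers summed to 250.8 and 321 CPM in early, 60.6 and 83.7 in middle and 28.9 and 30.4 in late podocytes, with Pax8 at 154 and 158 early and 15.4 and 14.9 late. Of these, Pax8, Lhx1, Wnt4 and Jag1 entered the score that divided the stages, so their drop is given by the choice of cells, and the early nephron gate itself held Col4a1 at 604 and 605 CPM and Lamb1 at 348 and 357. The part of these other markers in the fall of Col4a1, Col4a2 and Lamb1 was not tested. When clusters named from the same markers replaced the gates, the changes of the following genes were larger. Log2 fold changes were -3.52 for Col4a1, -2.47 for Col4a2, 3.98 for Col4a3, 3.08 for Col4a4 and 2.61 for Lamb2. The early podocyte group then held 209 and 135 cells, against 160 and 108 with gates. The clusters named podocyte included a cluster of 305 cells with a mean podocyte score of 0.222, under the gate threshold. The part of these cells in the larger changes was not tested.

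Among other genes of basement membranes, 4 of 16 further chains and components were higher and 4 lower in late podocytes, with a median log2 fold change of -0.75, or -0.48 with genes at 0 UMIs set to their bound. The laminin chains Lama4 (87 to 3 CPM) and Lamc3 fell by 4.93 and 4.36 on the log2 scale, and Lama2 had 13 UMIs in early and 0 in late podocytes, at least 2.67-fold lower. Of 12 genes for processing and export of collagen chains, 4 were higher and 1 lower (median 0.26). P4ha2, a collagen prolyl 4-hydroxylase subunit, rose by 2.02, Plod2, a lysyl hydroxylase, by 1.85 (139 to 496 CPM), and P3h2, a prolyl 3-hydroxylase, by 1.36 (138 to 350 CPM). Of 8 receptors, 5 were higher and 1 lower (median 0.74): Dag1, dystroglycan, rose by 0.97 and the laminin-binding integrin Itga3 by 0.85, while Itga6 fell by 1.89.

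The shares of the chains within each gate are given next. They set UMIs of different genes against each other, so a share can be compared between gates but does not give the ratio of the transcripts or chains themselves. Col4a3, Col4a4 and Col4a5 together made up 47.2% and 39.0% of the UMIs of the 5 collagen IV genes in early podocytes, 86.5% and 82.2% in middle podocytes and 93.1% and 92.5% in late podocytes. In the endothelial gate the share was 0.80% and 0.66%. It was 40.5% and 31.4% in the loop of Henle, 38.8% and 31.4% in the collecting duct and 4.03% and 4.13% in the early nephron. Lamb2 made up 21.5% and 20.7% of the UMIs of Lamb1 and Lamb2 in early, 59.7% and 58.4% in middle and 73.1% and 79.6% in late podocytes, against 40.8% and 40.7% in the endothelial gate and 4.57% and 3.47% in the early nephron. Lama5 made up 9.93% and 8.64% of the UMIs of Lama1 and Lama5 in the early nephron, 19.7% and 17.5% in the proximal tubule, 63.1% and 62.5% in the tip, 88.2% and 86.9% in the collecting duct and 92.4% to 99.5% in the podocyte stages.

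**Figure D3:**
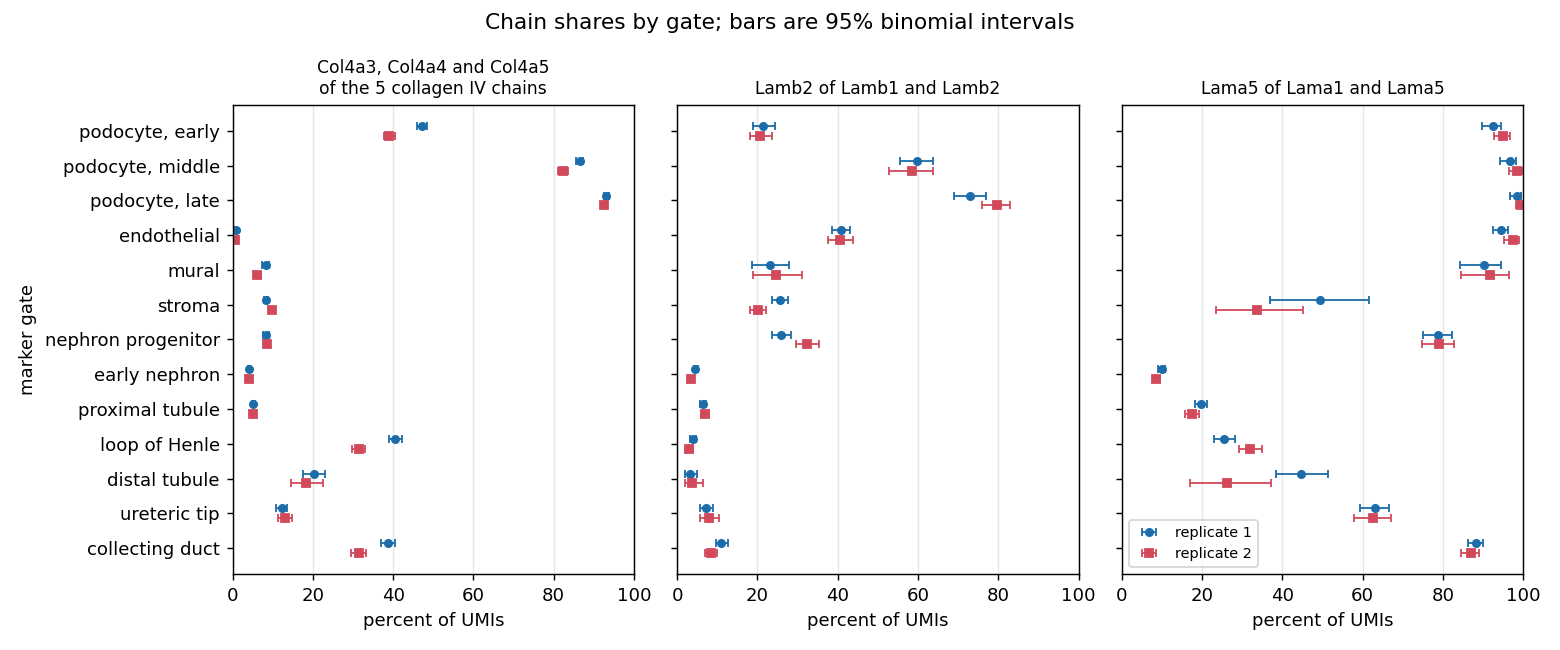
Share of UMIs (horizontal axes, percent) held by Col4a3, Col4a4 and Col4a5 among the 5 collagen IV genes, by Lamb2 among Lamb1 and Lamb2, and by Lama5 among Lama1 and Lama5, in 13 gates for replicate 1 (blue circles) and replicate 2 (red squares); bars are exact binomial 95% intervals of counting error. The collagen IV share goes from 47.2% and 39.0% in early to 93.1% and 92.5% in late podocytes, and the Lama5 share is lowest in the early nephron.

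Podocytes and endothelial cells face each other across the glomerular basement membrane, and late podocytes were compared with the endothelial gate, which was not restricted to glomerular capillaries. Late podocytes held more Col4a3, Col4a4, Col4a5, Lama5 and Lamb2, and endothelial cells more Col4a1, Col4a2, Lamb1 and Lamc1. Thus 5 genes were higher and 4 lower by edgeR, where 54.3% of all genes were called, 23.9% higher and 30.4% lower. Lama1 was at background in both gates (3.08 and 1.24 CPM against 3.03 and 1.27) and was not called (log2 fold change -0.29, 95% interval -1.57 to 0.99). The median over the 10 genes was 0.65, and over all genes -0.14.

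The largest differences were those of the restricted collagen IV chains. Col4a3 differed by 8.46 ± 0.20 on the log2 scale (adjusted p = 1.6e-22) and Col4a4 by 8.19 ± 0.23 (adjusted p = 1.9e-21), with endothelial levels near those of erythroid cells. Col4a5 differed by 4.36 ± 0.14 (adjusted p = 3.6e-20). Col4a1 was 20.5-fold lower in late podocytes (log2 fold change -4.35 ± 0.12) and Col4a2 8.87-fold lower (-3.15 ± 0.12). The laminin differences were smaller: 1.92 ± 0.11 for Lama5, 1.58 ± 0.13 for Lamb2, -0.66 ± 0.13 for Lamb1 and -0.61 ± 0.11 for Lamc1. Lama5 stood at 53.0 and 50.1 CPM and Lamb2 at 74.5 and 68.3 CPM in the endothelial gate, above the erythroid levels of both genes. With at most 5% mitochondrial UMIs the first 3 differences became 9.30, 9.25 and 5.05.

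Without TMM factors, which scale for RNA composition, the median of all genes in this comparison moved from -0.14 to 0.02, and the split of calls went from 3488 higher and 4424 lower to 4211 and 3666. The 9 calls among the members kept their direction, Lamb1 and Lamc1 included. Of the 16 other chains and components 4 were higher and 9 lower (median -1.25, or -0.98 at bounds). Col15a1 was lower by 6.65 on the log2 scale, Lama3 had 0 UMIs against 167 (at least 11.1-fold lower) and Lama2 0 against 29 (at least 1.93-fold lower). Of the 12 processing genes 7 were higher and 4 lower (median 0.52), led by P3h2 (4.49), the lysyl oxidase homologue Loxl2 (4.30) and Plod2 (4.14). Of the 8 receptors 5 were higher and 3 lower (median 1.49): the collagen receptor Ddr1 (6.11) and Dag1 (3.84) were higher and Itga6 (-4.51) was lower.

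The stroma gate was compared with the mean, on the log scale, of 6 epithelial gates (nephron progenitor, early nephron, proximal tubule, loop of Henle, ureteric tip and collecting duct). Stroma held more Col4a1, Col4a2, Col4a3, Col4a4 and Lamb2, and less Lama1, Lama5, Col4a5, Lamb1 and Lamc1. All 10 genes were called by edgeR, 5 in each direction, where 64.8% of all genes were called, 33.6% higher and 31.2% lower. The median was 0.18 over the 10 genes and 0.00 over all genes.

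The alpha chains differed most. Lama5 stood at 3.48 and 3.08 CPM in stroma and between 18.1 and 258 CPM in the 6 epithelial gates (log2 fold change -4.12 ± 0.14, adjusted p = 1.4e-19), and Lama1 at 3.58 and 6.04 CPM in stroma and between 4.80 and 224 CPM in the epithelial gates (-3.80 ± 0.15, adjusted p = 3.3e-18). Both stroma levels were close to the erythroid ones. Col4a1 was higher in stroma by 1.01 ± 0.07, Col4a2 by 1.15 ± 0.07 and Lamb2 by 1.11 ± 0.10, while Lamb1 was lower by 0.70 (log2 fold change -0.70 ± 0.08), Lamc1 by 0.65 (-0.65 ± 0.08) and Col4a5 by 1.14 (-1.14 ± 0.11). Col4a4 was higher by 2.11 ± 0.13 and Col4a3 by 1.76 ± 0.16, but this rests on the averaging of gates: stroma Col4a4, at 70.3 and 79.6 CPM, lay below the loop of Henle and the collecting duct and above the other 4 gates. The averaging bears on other calls too. Stroma Col4a1 (809 to 833 CPM) overlapped the proximal tubule (717 to 847), and stroma Lamb2 (36.9 to 48.3) the collecting duct (36.9 to 46.4). Lamb1 (140 to 146) and Lamc1 (116 to 120.5), called lower in stroma, lay above nephron progenitors (42.1 to 47.4 and 58.8 to 62.3). With at most 5% mitochondrial UMIs only 3 epithelial gates kept enough cells, and the differences became 4.84 for Col4a3, 4.43 for Col4a4, 0.55 for Col4a2 and -2.74 for Lama5.

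Sub-gates of the stroma, chosen after the data were seen, are given as levels without a test. In cortical nephrogenic stroma (119 and 130 cells) Col4a3 stood at 79.4 and 67.3 CPM and Col4a4 at 223.5 and 246 CPM, and the 3 restricted chains made up 44.2% and 43.4% of collagen IV UMIs. In medullary, mesangial and adventitial stroma Col4a4 stood at 4.65 to 14.4 CPM, near the erythroid level, and the share was 1.11% to 3.95%. Many stroma cells (601 and 573) fell in no sub-gate. There Col4a3 had a mean of 19.9 CPM and Col4a4 of 63.9 CPM, above the erythroid levels, and the share was 8.0% and 9.5%. Podocyte markers in the cortical sub-gate summed to 109 and 101 CPM, most of it Wt1 (66.3 and 73.0 CPM). In the adventitial sub-gate the podocyte markers summed to 121 and 93.1 CPM, and in the endothelial gate, where Col4a4 stood at 5.66 and 3.49 CPM, to 373 and 356 CPM. Such a sum does not tell podocyte RNA from markers that the cells of a gate express themselves, so it does not measure podocyte RNA. The part of podocyte RNA in the stroma levels of Col4a3 and Col4a4 was not tested.

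Col4a1, in contrast, was lowest in the cortical sub-gate, with 2032 and 2694 CPM in medullary, 1388 and 1206 in mesangial, 961 and 789 in adventitial and 284 and 339 in cortical nephrogenic stroma. These ranges did not overlap. Among the stroma sub-gates the laminin beta and gamma chains stood highest in adventitial stroma (38 and 30 cells), with Lamb1 at 289 and 289 CPM, Lamb2 at 199 and 146 and Lamc1 at 326 and 270.1. In the endothelial gate the arterial sub-gate held Lama5 at 104 and 99.1 CPM and Lamb2 at 137 and 109.5, against 45.1 and 39.0 and 57.4 and 55.4 in plexus endothelium. Lamb1 (59.2 and 70.4 CPM arterial, 151 and 152 plexus), Col4a1 (1629 and 1950.1, 2685 and 2474) and Lamc1 (308.5 and 310.4, 425 and 424) stood lower in the arterial sub-gate, and the 2 sub-gates did not overlap for these 5 genes.

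**Figure D4:**
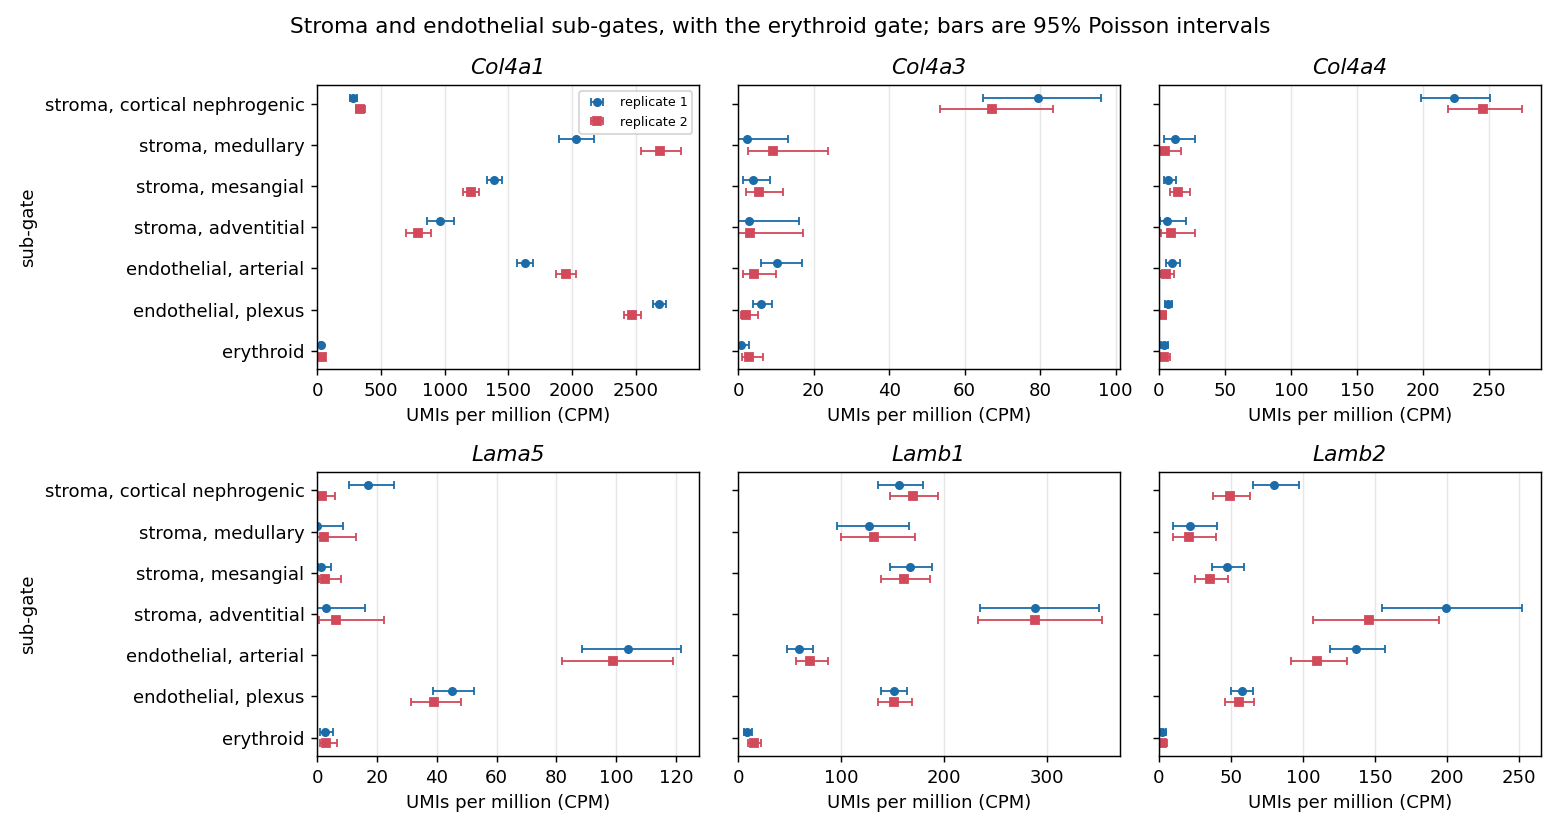
Level of 6 of the genes in CPM (horizontal axes, which start at 0 and differ between panels) in 4 stroma sub-gates, 2 endothelial sub-gates and the erythroid gate, for replicate 1 (blue circles) and replicate 2 (red squares); bars are exact Poisson 95% intervals of counting error. Col4a3 and Col4a4 stand above the erythroid level in cortical nephrogenic stroma, where Col4a1 is lowest among the stroma sub-gates.

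Of the 16 other chains and components, 8 were higher and 6 lower in stroma than in the epithelial mean (median log2 fold change 1.42). Lama2, the laminin alpha chain known from muscle and mesenchyme, was higher by 7.55 (95.4 CPM in stroma), Col15a1 by 6.08 and the linker Nid1 by 5.99 (359.6 CPM). Of the 12 processing genes 11 were higher and 1 lower (median 1.03), led by Loxl2 (3.87), P4ha2 (3.57) and Plod1 (2.05), while 5 of the 8 receptors were lower and 2 higher (median -1.29), with Itga6 at -4.04, the Lama5 receptor Bcam at -3.31 and Itga3 at -1.91.

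The nephron forms when progenitors become epithelial, and the early nephron gate was compared with the nephron progenitor gate. Early nephron cells held far more Lama1 and more Lamb1, Lamc1, Col4a1 and Col4a2. In all 7 genes were higher and 1 lower of 10 by edgeR, where 46.6% of all genes were called, 22.6% higher and 24% lower. The median was 1.44 over the 10 genes and -0.04 over all genes.

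Lama1 stood at 5.38 and 4.80 CPM in progenitors and at 224 and 219 CPM in the early nephron, a log2 fold change of 5.30 ± 0.14 (adjusted p = 1e-20), the largest among the 10 genes in this comparison. Lamb1 stood at 47.4 and 42.1 CPM in progenitors and at 348 and 357 in the early nephron (2.85 ± 0.10, adjusted p = 1.4e-18). Lamc1 stood at 58.8 and 62.3 CPM and at 271.5 and 317 (2.15 ± 0.10, adjusted p = 1e-15). The 3 chains are those of the first laminin of the kidney epithelium, and none of their ranges overlapped between the gates. Col4a1 was higher by 1.51 ± 0.09 (195 and 193 against 604 and 605 CPM) and Col4a2 by 0.78 ± 0.10.

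The other members did not pass the test, lost their call in an alternative or stood near background. Lama5 (0.13, 95% interval -0.10 to 0.36) and Col4a5 (-0.09, -0.33 to 0.15) did not pass the test. Lamb2 was lower by 0.45 (log2 fold change -0.45 ± 0.14, adjusted p = 8.9e-03). This call was lost with clusters in place of gates (adjusted p = 0.15), without TMM factors (0.066) and in DESeq2 (0.05). With at most 5% mitochondrial UMIs it was lost too, at a log2 fold change of -0.09 (adjusted p = 0.81). Col4a3 (1.65) and Col4a4 (1.38) were called higher, but their early nephron means of 2.51 and 5.37 CPM were close to the erythroid means of 1.83 and 3.82 CPM, and at most 5% mitochondrial UMIs ended both calls (adjusted p = 0.89 and 0.78). With clusters they were 0.93 and 0.65, and without replicate 2 Col4a3 was 0.96. Podocyte markers summed to 272 and 314 CPM in progenitors and 215 and 227 in the early nephron. These sums include any marker that the cells express themselves, so they do not measure podocyte RNA. The part of podocyte RNA in these low levels was not tested.

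Without TMM factors the median of all genes moved from -0.04 to 0.09, and the split of calls from 3291 higher and 3492 lower to 4254 and 2335. Of the 16 other chains and components 9 were higher and 1 lower (median 1.5). The alpha chain Lama4 rose by 3.48 on the log2 scale (10.4 to 128 CPM), and Lamb3 had 13 UMIs against 0 (at least 4.93-fold higher). Of the 12 processing genes 1 was higher and 4 lower (median -0.09): P3h2 at 2.50, Plod1 at -0.995 and P4ha1 at -0.89. Of the 8 receptors 7 were higher and 1 lower (median 1.5), with Itga1 at 4.69, Itga6 at 2.70, and Itga2 at 33 UMIs against 0 (at least 12.5-fold higher).

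Proximal tubule cells were compared with the early nephron. They held more Lama5, Col4a5, Col4a1, Lamb2 and Col4a2 and less Lamc1. By edgeR 6 genes were higher and 2 lower of 10, where 60.9% of all genes were called, 31.9% higher and 29.1% lower, so the share among the members was not far from that of all genes. The median was 0.53 over the 10 genes and 0.00 over all genes.

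Lama5 stood at 24.7 and 20.7 CPM in the early nephron and at 44.5 and 38.2 in the proximal tubule (log2 fold change 1.02 ± 0.11, adjusted p = 6.8e-09). Lama1 did not pass the test (-0.13, 95% interval -0.35 to 0.08). Col4a5 was higher by 0.88 ± 0.12, Col4a1 by 0.54 ± 0.09, Lamb2 by 0.53 ± 0.15 and Col4a2 by 0.38 ± 0.10, and Lamc1 was lower by 0.81 (-0.81 ± 0.10, 294 to 149.5 CPM). Lamb1 was lower by 0.23 (-0.23 ± 0.09, adjusted p = 0.033), a call lost with clusters (adjusted p = 0.53) and without the library block (0.097). Col4a3 was called at 0.92 ± 0.31 from levels of 2.51 and 3.97 CPM, near background. Without replicate 1 it was -0.14, with clusters 2.65, and at most 5% mitochondrial UMIs gave -1.25. Col4a4 stood at 6.72 CPM and was not called (0.58, 95% interval 0.01 to 1.15, adjusted p = 0.075).

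Without TMM factors the median of all genes moved from 0.00 to -0.15, the split of calls from 4644 higher and 4234 lower to 3832 and 5314, and Col4a2 lost its call (0.21, adjusted p = 0.11). The limit of 5% mitochondrial UMIs left 2 called members, both lower. It ended the calls of Lama5 (0.24, adjusted p = 0.44), Col4a5 (0.43, 0.074), Col4a1 (0.31, 0.088), Lamb2 (0.24, 0.58) and Col4a2 (0.05, 0.83). Of the 16 other chains and components 4 were higher and 7 lower (median -0.02): Lama4 at -5.67 (128 to 2.15 CPM), Lama3 at 3.50 and Lamc3 at -3.40. Of the 12 processing genes 6 were higher and 3 lower (median 0.20), led by P3h2 (1.86), P4ha1 (1.28) and Plod2 (1.02). Of the 8 receptors 4 were higher and 2 lower (median 0.33). The collagen-binding integrin Itga1 was at 2.38 and the laminin-binding Itga6 at 0.97, while Itga2, with 2 UMIs against 33, was 10.2-fold lower (95% counting interval 2.62 to 88.1).

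The collecting duct and the ureteric tip from which it grows were compared last. The duct held more Col4a4, Col4a3, Lamb2, Lama5, Col4a5, Lamb1 and Lamc1 and less Lama1. By edgeR 7 genes were higher and 2 lower of 10, where 34.8% of all genes were called, 18% higher and 16.8% lower. The median was 0.78 over the 10 genes and 0.03 over all genes. The tip gate held 65 and 70 cells with medians of 36489 and 18959.5 UMIs, and the collecting duct gate 96 and 80 cells with medians of 19764 and 23590.5 UMIs.

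Col4a4 stood at 25.6 and 26.4 CPM in the tip and at 151 and 129 in the collecting duct (log2 fold change 2.47 ± 0.22, adjusted p = 1.1e-09). Col4a3 stood at 9.10 and 5.57 CPM in the tip and at 36.7 and 32.3 in the collecting duct (2.20 ± 0.30, adjusted p = 1.2e-06). Neither gene overlapped between the gates, and the podocyte markers summed to 17.0 and 18.1 CPM in the collecting duct, under the 33.0 and 64.1 CPM of erythroid cells. The part of podocyte RNA in the levels of Col4a3 and Col4a4 was not tested. Lama5 was higher by 1.04 ± 0.11 (128 and 126 against 258 and 258 CPM) and Lama1 lower by 1.03 (log2 fold change -1.03 ± 0.16, 74.8 and 75.6 against 34.5 and 38.8 CPM), so the alpha chains changed in opposite directions. Lamb2 was higher by 1.08 ± 0.20, Col4a5 by 0.90 ± 0.14, Lamb1 by 0.65 ± 0.10 and Lamc1 by 0.49 ± 0.11.

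Col4a2 did not pass the test (-0.04, 95% interval -0.31 to 0.22). Col4a1 was lower by 0.29 (-0.29 ± 0.10, adjusted p = 0.024), a call lost with clusters (adjusted p = 0.20), without doublet removal (0.15) and without the library block (0.08). Of the 16 other chains and components 10 were higher and 2 lower (median 0.74). Lamb3 was higher by 3.90 (1.23 to 20.3 CPM), Lama3 had 31 UMIs against 0 (at least 8.20-fold higher), and Col15a1 28 against 2 (11.1-fold higher, 95% counting interval 2.80 to 96.3). Of the 12 processing genes 1 was higher and 3 lower (median -0.20): Plod2 at -1.51, Plod1 at -1.22 and Loxl2 at -1.15. Of the 8 receptors 3 were higher, Ddr1 (1.49), Bcam (1.40) and Dag1 (0.92), and 1 was lower (median 0.01).

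**Figure D5:**
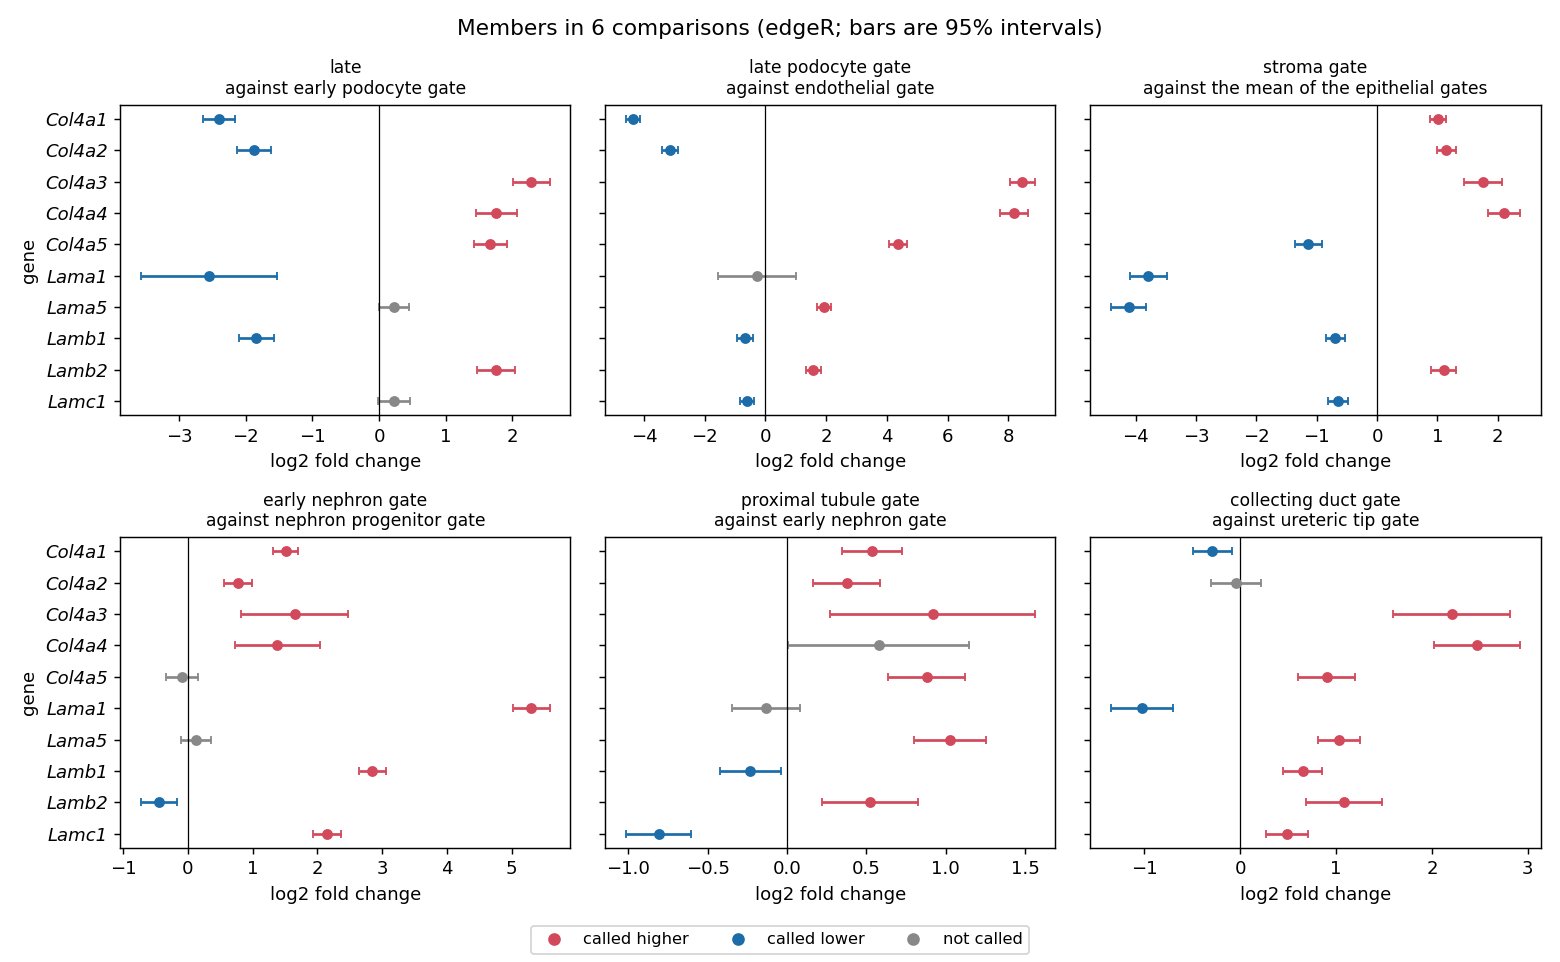
Log2 fold change (horizontal axes, which differ between panels) of each gene (rows) in the 6 comparisons, from edgeR on UMIs summed by gate and library; bars are 95% intervals, red is called higher, blue called lower and grey not called at an adjusted p of 0.05. Col4a1 and Col4a2 lie on the opposite side of zero from Col4a3, Col4a4 and Col4a5 in both podocyte panels, and Lama1 and Lama5 lie on opposite sides in the collecting duct panel.

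The neighbouring genes had like patterns over gates. Across the 14 gates in the fit, Pearson's r of log2(CPM + 1) was 0.985 for Col4a3 with Col4a4 and 0.942 for Col4a1 with Col4a2, and each gene of a pair was the nearest of 9300 genes to the other. The gates share 2 libraries, so these values are descriptions. Col4a5, which lies on another chromosome, ranked 84 to Col4a4 (r = 0.809) and 137 to Col4a3 (r = 0.811). Col4a1 and Col4a3 had r = 0.113. The second nearest genes were Smtn for Col4a1 (r = 0.920), St5 for Col4a2 (0.922), and Myo1d for both Col4a3 (0.959) and Col4a4 (0.946).

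Col4a5, Lama5, Lamb1, Lamb2 and Lamc1 had nearest genes outside the 10. The nearest pairs were Kank1 (0.977) and Arvcf (0.964) for Col4a5, Bcam (0.964) and Col18a1 (0.932) for Lama5, Traf4 (0.945) and Aldh5a1 (0.939) for Lamb1, Lats2 (0.962) and Uaca (0.956) for Lamb2, and Map4k3 (0.969) and Phldb1 (0.955) for Lamc1. Bcam encodes a receptor for the Lama5 chain.

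Within single cells the paired collagen genes were counted together. A UMI of both Col4a3 and Col4a4 was found in 80.6% and 76.9% of early, 98.8% and 96.0% of middle and 100% and 98.5% of late podocytes, against 1.10% and 0.62% of endothelial cells. In erythroid cells, at medians of 4405 and 4500 UMIs, 0.42% and 1.38% had a UMI of Col4a3. Both Col4a1 and Col4a2 were found in 94.2% and 96.1% of endothelial and in 34.5% and 39.5% of late podocyte cells. In early podocytes 60.6% and 63.0% of cells had a UMI of both Col4a1 and Col4a3, and 37.5% and 38.9% of both Lamb1 and Lamb2. In erythroid cells 4.59% and 6.61% had a UMI of Lamb1, and 1.04% and 1.10% one of Lamb2. In late podocytes Lamb2 without Lamb1 was found in 51.1% and 53.5% of cells and Lamb1 without Lamb2 in 2.88% and 4.65%, whereas in early podocytes these shares were 19.4% and 13% and 29.4% and 38.9%. These shares were not thinned and depend on the depth of the cells.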

How the data were processed

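Both single-cell libraries capture 3' cDNA ends with 10x Chromium chemistry, per the labels' protocols. The deposited values are unfiltered counts, in UMIs for each gene in each barcode. The file headers name Cell Ranger 4 as the writer of the matrices, while the submitters' processing notes name Cell Ranger 6.0.1 and mm10. Libraries are numbered in accession order.

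Barcodes with at least 2000 UMIs (6910 and 5917) and at most 10% mitochondrial UMIs were kept. This removed 690 and 768 barcodes, and Scrublet (scanpy 1.11.5) removed 310 and 212 doublets at a rate of 0.8% per 1000 cells. A cell's gate score was the mean, over a type's markers, of log-transformed counts per 10000 scaled to the mean of the top 50 cells. A cell entered the best gate at a score of at least 0.25 and a margin of 0.1 over other lineages. This left 624 and 568 cells with low scores and 476 and 292 ambiguous. In replicates 1 and 2, 725 and 624 cells lay within 0.05 of the threshold. The 10 genes and the 3 gene lists were chosen with earlier results of these data known. List genes are named where called, the 3 with the largest absolute fold change per list and comparison. Some genes that this rule or the rule for nearest genes selects are not reported here.

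UMIs were summed by gate and library for 14 gates with at least 20 cells in each library, and fitted with edgeR 4.0.16 under R 4.3.3 and limma 3.58.1, using TMM factors, filterByExpr, library as a block, 13 residual degrees of freedom and a common dispersion of 0.00412. The distal tubule gate (25 and 11 cells) was too small for the fit. The Benjamini-Hochberg adjustment covered 14568 genes, with a threshold of 0.05. The script was tested on simulated data for late against early podocytes. It recovered 52.1% of planted changes of log2 size 1 and 72.3% of size 2, with 2 false calls among 14475 unchanged genes. A gene that did not pass the test is therefore not shown to be unchanged. The simulation drew every gene with the common dispersion of 0.00412, so its false calls do not give the error rate in the real data. CPM carry exact Poisson and shares exact Clopper-Pearson 95% intervals, which cover counting error only. Alternatives changed the gate threshold, clusters for gates, filters, block, scaling (added after the data were seen), DESeq2 1.42.0 and the library used. Sequences were not used here.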

Additional observations from a re-analysis of the deposited data

How the results depend on the processing

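Of the fold changes of called genes, 606 under the alternatives kept direction and call or moved by less than their spread, 17 lost the call, 7 with 1 library moved further, and 2 reversed. For a library left out, the spread was that of the 2 single-library values themselves. The 48 fold changes kept without replicate 1 and the 48 without replicate 2 are therefore a weak check. Both reversals were Col4a3 in proximal tubule against early nephron, which was -1.25 at 5% mitochondrial UMIs and lay between -0.14 (without replicate 1) and 1.44 (without replicate 2) with a library left out, from levels near background. The limit of 5% mitochondrial UMIs removed most epithelial cells. It left 5 called members in early nephron against progenitor and 2 in proximal tubule against early nephron, 3 epithelial gates in the stroma comparison, and no collecting duct against tip comparison. The library block is part of the main fit; with no replicate block the counts of called members were 8, 9, 10, 8, 7 and 8 in the order of the report, and the paired fit changed no call but those of Lamb1 in proximal tubule and Col4a1 in collecting duct. With 1 library there are no residual degrees of freedom, so no calls could be counted. Of 1200 levels, 946 stayed within the spread between libraries and 254 moved, most with clusters (86) or the 5% limit (88). The 946 include 150 levels without replicate 1 and 150 without replicate 2. These cannot leave that spread by its definition, so they are no check. Of 150 shares of cells with a UMI, 63 were within 1.5 times of the thinned share when left unthinned. For Col4a3 with Col4a4, r was 0.983 with clusters, 0.993 at the 5% limit and 0.982 to 0.984 with 1 library left out. Depth limits Lama1 in late podocytes, which rests on 5 and 2 UMIs.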
